A study of Mus musculus with 32 samples.

Results

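The mitochondrial carrier family Slc25 is the set of membrane proteins that move metabolites, nucleotides and cofactors across the inner mitochondrial membrane, and its mRNA levels were described here in the liver of mice that lacked the fatty acid oxidation enzyme MCAD and of their WT littermates. The members were the protein-coding genes with a symbol starting with Slc25a, apart from Slc25a1, Slc25a15 and Slc25a20, together with Ucp2. The annotation held 45 such genes, the count table held 43 of them, and 38 of those 43 reached at least 1 CPM (reads scaled to the size of the library) in 4 or more of the libraries used, out of 13960 genes that passed this filter among 20076 in the table. Slc25a18 and Slc25a54 were not listed in the table, and Slc25a2, Slc25a30, Slc25a31, Slc25a41 and Slc25a43 were listed but did not pass.

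Liver RNA of 32 male C57BL/6J mice was sequenced from the 3′ end of transcripts, 1 library per mouse. The 8 groups of 4 mice crossed genotype (Acadm-knockout, called MCAD-KO, or wild-type, WT), a semisynthetic diet low or high in fat eaten over 6 weeks, and nutritional state at sampling (fed, or after a fast of 16 h). The knockout is constitutive, and the study reported no detectable MCAD protein in liver mitochondria of MCAD-KO mice. No group was labelled with another allele or treatment, and all mice were killed under isoflurane anaesthesia. The age labels ran from 7.5 to 16 without a unit.

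Carriers of this family share a fold of repeated membrane-spanning helices and mostly work as exchangers, letting one substrate in for another going out. In the liver they connect the cytosol with mitochondrial ATP production, the urea cycle, gluconeogenesis, ketone body formation and fatty acid oxidation, all of which shift between the fed and the fasted state. The uncoupling proteins belong to the same family, and a few members sit in other membranes, such as Slc25a17 in the peroxisome and Slc25a46 in the outer mitochondrial membrane.

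The libraries used held 2031053 to 4292200 assigned reads. Replicate 4 of the MCAD-KO high-fat fasted mice was left out because it held 33822 CPM of heart markers, where none of the 30 mice used exceeded 73.8 CPM, while its hepatocyte markers summed to 928 CPM, against at least 49768 CPM. Replicate 2 of the WT low-fat fed mice was left out as an outlier: its stellate cell markers summed to 1492 CPM and its bile duct markers to 278 CPM, against at most 561 and 40.2 CPM in the mice used. The remaining 30 mice all showed the hepatocyte markers at 49768 to 82861 CPM, and the lowest of them, replicate 1 of the MCAD-KO low-fat fasted mice, also stood apart in several carriers below. Acinar pancreas markers summed to 17745 CPM in WT high-fat fasted replicate 2 and to 2676 CPM in MCAD-KO high-fat fed replicate 1. The 5 adrenal cortex markers summed to 239 CPM in MCAD-KO low-fat fasted replicate 3 and to 97.2 CPM in replicate 4 of that group, against a median of 0.914 CPM over the 30 mice. In bulk liver fewer cells of a type and less RNA per cell cannot be told apart. Acadm, the targeted gene, was at 8.88 to 32.9 CPM in the 15 MCAD-KO mice and at 191 to 741 CPM in the 15 WT mice, with no overlap.

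In the fed state the family was dominated by a few genes. Over the 15 fed mice Slc25a3, the phosphate carrier needed for ATP synthesis, made up 17.4% of the summed CPM of the 38 genes, Slc25a5, an ADP/ATP carrier, 12.7%, Slc25a39, a glutathione carrier, 11.0%, and Slc25a47, a liver-enriched carrier whose substrate is not settled, 9.37%. These 4 genes together held 50.5% of the family's CPM, while the 12 least abundant genes, from Ucp2 downwards, held at most 0.293% each. CPM counts transcript ends and was not divided by length, since each transcript gives reads from its 3′ end only. Carrier levels here and below are CPM scaled by TMM size factors, as in the fit. Marker and Acadm CPM were scaled to total counts alone.

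Of the 3 factors, fasting called the most carriers. Averaged over the 4 combinations of genotype and diet, 15 of the 38 genes passed an adjusted p of 0.05, that is 39.5% of the members against 15.7% of all 13960 genes tested (edgeR quasi-likelihood test with Benjamini-Hochberg adjustment over all genes). Of these, 10 rose (7.99% of all genes rose) and 5 fell (7.7% of all genes fell). The median log2 fold change of the 38 genes was 0.13, against -0.01 over all genes, and the median size of the change regardless of sign was 0.37 against 0.23. In all 15 genes the direction was kept when the mice of lane 7 and those of lane 8 were fitted apart. The test then called 1 of these genes in lane 7, Slc25a44, and 11 in lane 8. Over all genes it called 336 of 13155 in lane 7 and 1442 of 12950 in lane 8. No low-fat fed WT mouse was in lane 7.

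Marker sums of other cell types were read beside these counts. The 7 liver macrophage markers, all in the table, summed to 363 to 495 CPM in fed and 217 to 685 CPM in fasted mice. A fit with this sum as a term called 1800 of 13960 genes for fasting. In that fit 10 of the 15 carriers kept the call, while 5 missed the threshold with their direction kept. Of these, Slc25a42 then had a log2 fold change of 0.37 (adjusted p = 0.144), Slc25a33 of 0.37 (adjusted p = 0.0948), Slc25a37 of -0.31 (adjusted p = 0.0718) and Slc25a51 of 0.42 (adjusted p = 0.0775), and Slc25a35 an adjusted p of 0.0604. The 4 bile duct markers summed to 23.7 to 37.8 CPM in low-fat fed and 7.92 to 19.7 CPM in low-fat fasted mice. Spp1, 1 of the 4, had medians of 24.0 and 10.4 CPM in these mice. The 5 adipose markers summed to 0.349 to 12.6 CPM in low-fat fed and 23.6 to 188 CPM in low-fat fasted mice. Of this sum Cidec, a lipid droplet gene, gave 11.8 to 162 CPM in the fasted mice. The fat cell marker Adipoq was at 0 in 4 of the 8 fasted mice and reached at most 7.92 CPM, against 1.62 CPM in the fed mice. The highest fasted and fed values were 6.84 and 0 CPM for Plin1, 10.8 and 7.45 CPM for Ucp1, and 0.985 and 1.62 CPM for Retn. The part of bile duct and adipose RNA in the carrier levels was not tested.

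**Figure D1:**
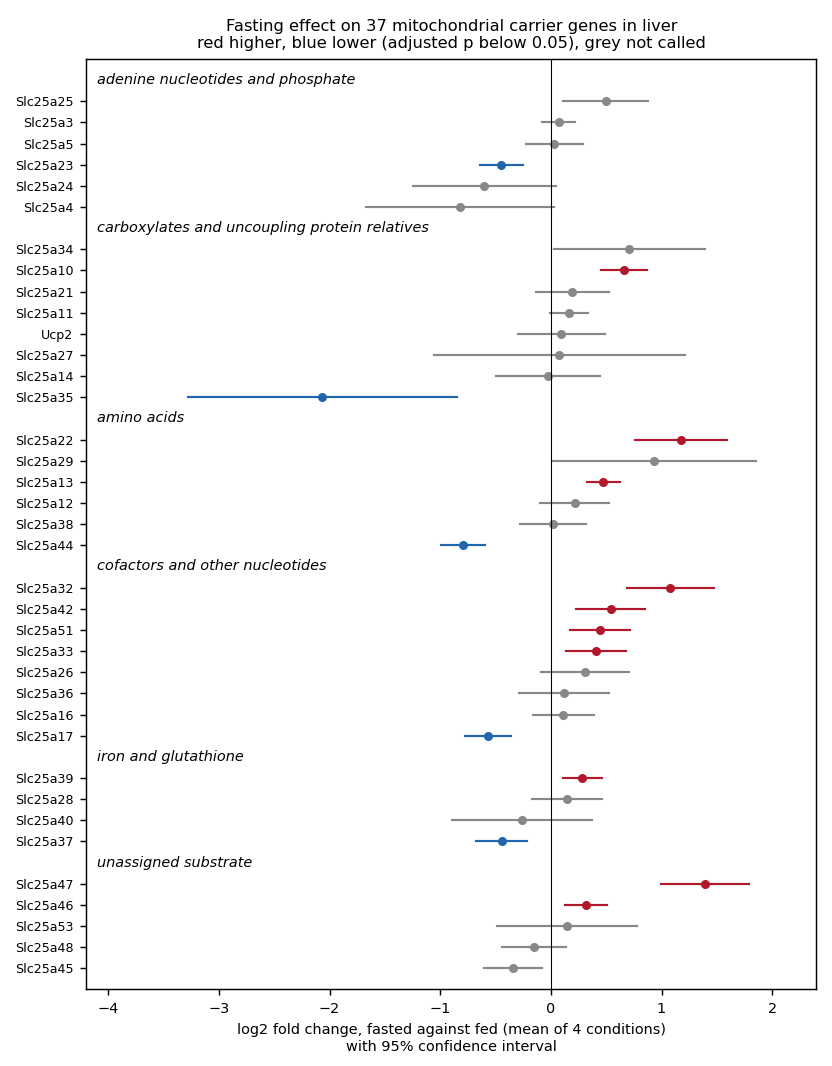
Log2 fold change of fasted against fed mice, averaged over 4 conditions, for 37 of the 38 genes, with 95% confidence intervals, sorted by role and by size. Red points (10 genes) were higher and blue points (5 genes) lower at an adjusted p below 0.05; Slc25a35 rests on few reads.

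Among the carriers of adenine nucleotides and phosphate, 1 of 6 passed the test. Slc25a23, which exchanges ATP-Mg for phosphate and so adjusts the nucleotide content of the mitochondrial matrix, fell by 0.45 ± 0.10 on the log2 scale (adjusted p = 0.000520). Its level was 104 to 137 CPM in low-fat fed mice and 58.0 to 117 CPM in low-fat fasted mice, with the ranges overlapping only through replicate 3 of the MCAD-KO low-fat fasted mice. Slc25a25, a related ATP-Mg/phosphate carrier, had a log2 fold change of 0.49 ± 0.19 and did not pass (adjusted p = 0.0782). The abundant Slc25a3 (0.07 ± 0.07, adjusted p = 0.626) and Slc25a5 (0.03 ± 0.13, adjusted p = 0.910) were not called, nor were Slc25a4, described further on, and Slc25a24, a calcium-regulated ATP-Mg/phosphate carrier (-0.60 ± 0.32, adjusted p = 0.237). The lowest low-fat fasted level of Slc25a5 was 92.5 CPM, in an MCAD-KO mouse. The median of the low-fat fasted mice was 403 CPM, and low-fat fed mice had at least 329 CPM. Mean levels of Slc25a23 in WT mice (± SD, n = 4, or 3 in low-fat fed) were 133 ± 3.46 CPM in low-fat fed, 83.4 ± 11.7 CPM in low-fat fasted, 126 ± 19.0 CPM in high-fat fed and 111 ± 10.2 CPM in high-fat fasted mice. In MCAD-KO mice (n = 4, or 3 in high-fat fasted) Slc25a23 averaged 119 ± 11.7 CPM in low-fat fed, 76.8 ± 27.5 CPM in low-fat fasted, 112 ± 7.46 CPM in high-fat fed and 91.2 ± 30.6 CPM in high-fat fasted mice.

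Of the 8 carriers of carboxylates and relatives of the uncoupling proteins, Slc25a10 rose and Slc25a35 fell. Slc25a10 (ENSMUSG00000025792, chr11:120491840-120499187, plus strand) is the dicarboxylate carrier, which exchanges malate and succinate for phosphate. It stood at 57.3, 71.9 and 75.2 CPM in the WT low-fat fed mice and at 119, 161, 163 and 211 CPM in the WT low-fat fasted mice. In the MCAD-KO mice it went from 72.3, 89.4, 69.9 and 105 CPM in the low-fat fed to 153, 126, 132 and 124 CPM in the low-fat fasted condition. On the low-fat diet every fasted mouse was above every fed mouse in both genotypes. High-fat fed mice reached 72.6 to 139 CPM and high-fat fasted mice 103 to 196 CPM, and these ranges overlapped. Slc25a10 rose by 0.66 ± 0.10 on the log2 scale (1.58-fold, adjusted p = 3.06e-06).

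Slc25a35, an orphan carrier, was listed at low counts throughout. Its libraries held 0 to 6 reads in the low-fat fed mice, 0 or 1 read in the 8 low-fat fasted mice, 2 to 21 in the high-fat fed and 0 to 6 in the high-fat fasted mice. The test called it lower in fasted mice (adjusted p = 0.0123), but most low-fat fasted libraries held no read, so no fold change is given for it. Slc25a34 (0.71 ± 0.34, adjusted p = 0.167), an orphan relative of Slc25a35, was not called. The oxoglutarate carrier Slc25a11 (0.16 ± 0.09), the oxodicarboxylate carrier Slc25a21 (0.19 ± 0.16), Ucp2 (0.09 ± 0.19) and its relatives Slc25a14 (-0.03 ± 0.23) and Slc25a27 (0.07 ± 0.56) had adjusted p of 0.219 or more.

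The amino acid carriers changed in both directions, with 2 of 6 higher and 1 lower. Slc25a22 (ENSMUSG00000019082, chr7:141429744-141437892, minus strand) carries glutamate with a proton into the matrix. WT low-fat fed mice had 131, 88.7 and 144 CPM, against 724, 497, 215 and 349 CPM in WT low-fat fasted mice. In the MCAD-KO low-fat mice the values were 102, 109, 145 and 98.4 CPM when fed and 63.5, 403, 260.0 and 393 CPM when fasted. All fasted low-fat mice were above all fed low-fat mice but for the MCAD-KO replicate 1, which was the lowest of the 15. The average log2 fold change was 1.17 ± 0.20 (2.26-fold, adjusted p = 0.000151). On the high-fat diet it was 98.1 to 171 CPM in fed and 153 to 311 CPM in fasted mice, which overlapped.

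Slc25a13 (ENSMUSG00000015112, chr6:6041218-6217173, minus strand) is citrin, the aspartate-glutamate carrier of the liver, which serves the urea cycle and the malate-aspartate shuttle. Its WT levels were 153, 147 and 132 CPM in low-fat fed, 250.1, 231, 208 and 205 in low-fat fasted, 186, 156, 193 and 188 in high-fat fed and 223, 219.7, 229 and 232 in high-fat fasted mice. The MCAD-KO mice had 144, 150.1, 129 and 149 CPM in the low-fat fed, 177, 258, 181 and 209 in the low-fat fasted, 179, 172, 179 and 161 in the high-fat fed and 203, 251 and 236 in the high-fat fasted condition. Fasted and fed mice did not overlap on either diet, and the fed mice on the high-fat diet were all above the fed mice on the low-fat diet. The average log2 fold change was 0.48 ± 0.07 (1.39-fold, adjusted p = 3.16e-06). Its close relative Slc25a12, the aspartate-glutamate carrier of muscle and brain, lay at 13.2 CPM on average in the fed mice and was not called (0.22 ± 0.15, adjusted p = 0.415).

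Slc25a44 (ENSMUSG00000050144, chr3:88410498-88425139, minus strand), a carrier of branched-chain amino acids into mitochondria, had the smallest p of the family for fasting. It was called lower in both genotypes on the low-fat diet and in WT mice on the high-fat diet. The WT low-fat call was lost when any 1 of 5 mice was left out and in 8 of 16 other settings. The WT high-fat call was lost when any 1 of 3 mice was left out. In MCAD-KO high-fat mice Slc25a44 had a log2 fold change of -0.76 ± 0.21, which did not pass (adjusted p = 0.0990). On the low-fat diet it was 68.4, 123 and 113 CPM in WT fed and 62.3, 63.3, 69.5 and 57.5 CPM in WT fasted mice, and 88.2, 93.2, 80.3 and 114 CPM in MCAD-KO fed and 63.5, 44.9, 55.9 and 61.2 CPM in MCAD-KO fasted mice. On the high-fat diet it was 95.1, 75.4, 151 and 111 CPM in WT fed, 57.2, 67.8, 45.3 and 49.2 CPM in WT fasted, 72.8, 73.9, 91.6 and 98.0 CPM in MCAD-KO fed and 47.2, 52.9 and 48.5 CPM in MCAD-KO fasted mice. Fed and fasted ranges did not overlap on the high-fat diet, while on the low-fat diet the WT fed replicate 1 lay just below the WT fasted replicate 3. The average log2 fold change was -0.79 ± 0.10, a level 1.73-fold lower in fasted mice (adjusted p = 3.58e-08). Slc25a38, a glycine carrier of haem synthesis (0.02 ± 0.15, adjusted p = 0.961), and Slc25a29, a carrier of basic amino acids at 1.27 CPM in fed mice (0.93 ± 0.46, adjusted p = 0.183), were not called.

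**Figure D2:**
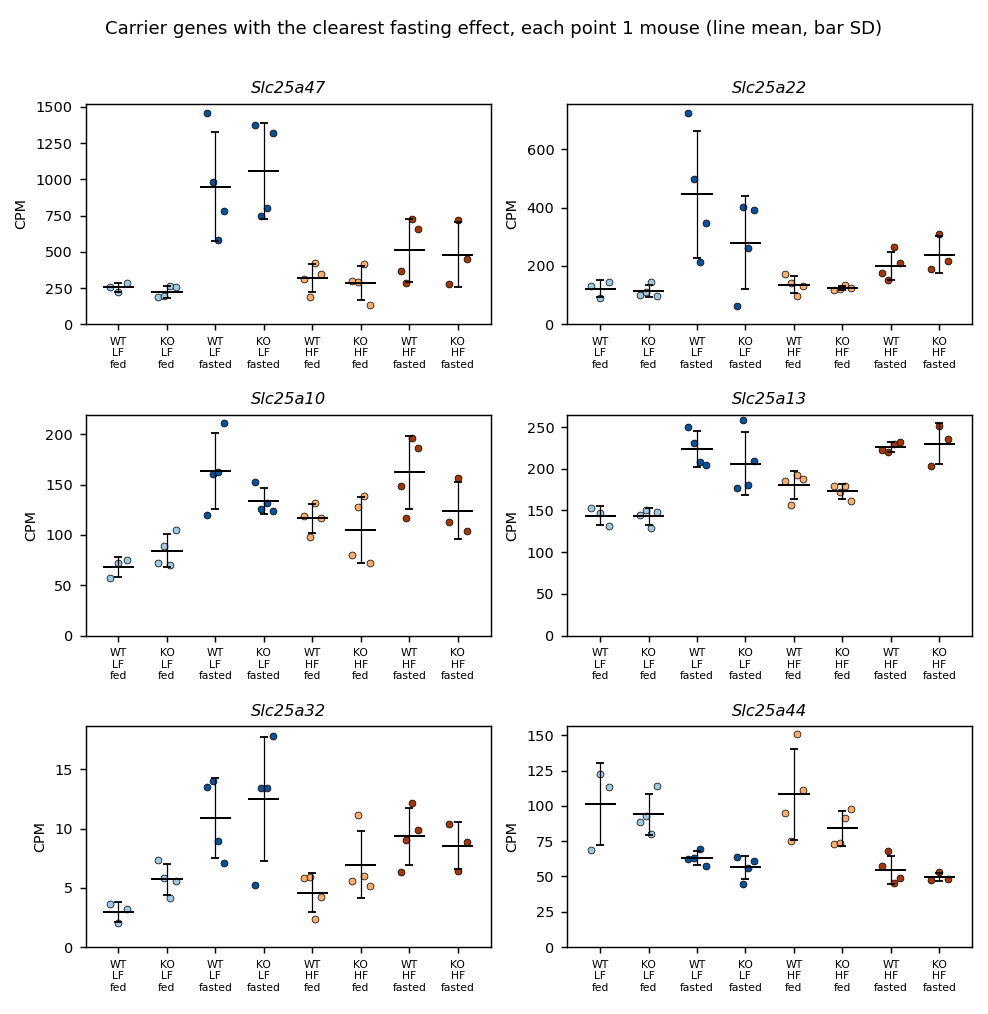
CPM of 6 genes called for fasting, in each of 30 mice by genotype, diet (LF low-fat, HF high-fat) and feeding state; each point is 1 mouse, the line is the group mean and the bar 1 SD. On the low-fat diet Slc25a47 and Slc25a13 showed no overlap between fed and fasted mice, whereas Slc25a22 had 1 fasted MCAD-KO mouse below all others.

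Of the 9 cofactor and nucleotide carriers, the largest of the groups, 4 were called higher and 1 lower. Slc25a32 (ENSMUSG00000022299, chr15:39091231-39112716, minus strand), which brings folate and FAD into the matrix, was at 3.63, 2.02 and 3.24 CPM in WT low-fat fed and 13.5, 14.0, 8.96 and 7.09 CPM in WT low-fat fasted mice, and at 7.35, 5.82, 4.15 and 5.57 CPM and 5.26, 13.4, 13.5 and 17.8 CPM in the MCAD-KO mice of the same conditions. On the high-fat diet it was 2.38 to 11.1 CPM in fed and 6.29 to 12.2 CPM in fasted mice. These low levels differed by a log2 fold change of 1.08 ± 0.20 on average (2.11-fold, adjusted p = 4.96e-05). On the low-fat diet the WT ranges did not overlap and the MCAD-KO ranges overlapped only through the fasted replicate 1, and on the high-fat diet the WT ranges did not overlap whereas the MCAD-KO ranges did. Slc25a42, which exchanges coenzyme A for ADP, rose by 0.54 ± 0.15 (adjusted p = 0.0131), and Slc25a33, a pyrimidine nucleotide carrier, by 0.41 ± 0.13 (adjusted p = 0.0278). Mean levels of Slc25a42 in WT mice (± SD, n = 4, or 3 in low-fat fed) were 62.3 ± 8.21 CPM in low-fat fed, 104 ± 26.2 CPM in low-fat fasted, 76.7 ± 16.4 CPM in high-fat fed and 116 ± 24.2 CPM in high-fat fasted mice. In MCAD-KO mice (n = 4, or 3 in high-fat fasted) Slc25a42 averaged 64.3 ± 10.7 CPM in low-fat fed, 102 ± 50.5 CPM in low-fat fasted, 85.3 ± 13.2 CPM in high-fat fed and 94.6 ± 25.0 CPM in high-fat fasted mice. Replicate 1 of the MCAD-KO low-fat fasted mice had 28.9 CPM of Slc25a42, against 113 to 143 CPM in the rest of that group. Mean levels of Slc25a33 in WT mice (± SD, n = 4, or 3 in low-fat fed) were 19.6 ± 2.39 CPM in low-fat fed, 29.4 ± 6.74 CPM in low-fat fasted, 26.7 ± 8.51 CPM in high-fat fed and 37.6 ± 8.89 CPM in high-fat fasted mice. In MCAD-KO mice (n = 4, or 3 in high-fat fasted) Slc25a33 averaged 30.7 ± 11.1 CPM in low-fat fed, 39.9 ± 9.78 CPM in low-fat fasted, 29.2 ± 6.58 CPM in high-fat fed and 32.9 ± 11.8 CPM in high-fat fasted mice. The call of Slc25a33 was lost when any 1 of 8 mice was left out, with adjusted p up to 0.0753.

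Slc25a51 (ENSMUSG00000045973, chr4:45395923-45408766, minus strand), the carrier that brings NAD+ into mitochondria, rose with fasting on average. Within single conditions Slc25a51 was called in the MCAD-KO low-fat mice (1.26 ± 0.26, adjusted p = 0.00116). In the WT low-fat mice Slc25a51 had a log2 fold change of 0.85 ± 0.28, which did not pass (adjusted p = 0.0727). In WT mice it went from 114, 116 and 139.8 CPM low-fat fed to 366, 178, 113 and 231 CPM low-fat fasted, and in MCAD-KO mice from 101, 101, 117 and 90.1 CPM to 270.0, 113, 258 and 338 CPM. Of the 8 fasted mice 6 were above every fed low-fat mouse, and WT replicate 3 and MCAD-KO replicate 2 lay among the fed ones. The average log2 fold change over both diets was 0.44 ± 0.13 (1.36-fold, adjusted p = 0.0197).

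Slc25a17 (ENSMUSG00000022404, chr15:81318911-81360812, minus strand), the peroxisomal carrier of coenzyme A, FAD and NAD+, fell. It stood at 85.3, 73.3 and 65.2 CPM in WT low-fat fed and 39.4, 48.5, 34.5 and 47.6 CPM in WT low-fat fasted mice, and at 65.9, 71.1, 76.5 and 64.1 CPM and 16.2, 37.9, 42.5 and 33.7 CPM in the MCAD-KO mice. Fed and fasted mice on the low-fat diet did not overlap, whereas the high-fat ranges, 47.5 to 64.0 CPM fed and 37.7 to 66.7 CPM fasted, did. The average log2 fold change was -0.57 ± 0.10 (1.48-fold lower, adjusted p = 5.02e-05). Slc25a16 (0.11 ± 0.13), the S-adenosylmethionine carrier Slc25a26 (0.31 ± 0.20) and the pyrimidine nucleotide carrier Slc25a36 (0.12 ± 0.20) had adjusted p of 0.339 or more. Slc25a16 was at 14.0 CPM in MCAD-KO low-fat fasted replicate 1, against 68.9 to 83.0 CPM in the rest of that group.

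In the iron and glutathione group 1 of 4 genes rose and 1 fell. Mean levels of Slc25a39 in WT mice (± SD, n = 4, or 3 in low-fat fed) were 325 ± 14.8 CPM in low-fat fed, 421 ± 38.1 CPM in low-fat fasted, 310.3 ± 37.6 CPM in high-fat fed and 335 ± 55.8 CPM in high-fat fasted mice. In MCAD-KO mice (n = 4, or 3 in high-fat fasted) Slc25a39 averaged 322 ± 10.6 CPM in low-fat fed, 517 ± 196 CPM in low-fat fasted, 325 ± 33.3 CPM in high-fat fed and 319 ± 30.03 CPM in high-fat fasted mice. This glutathione carrier had an average log2 fold change of 0.28 ± 0.09 (adjusted p = 0.0191). In the MCAD-KO low-fat fasted mice it was 805, 429, 371 and 461 CPM, and replicate 1 lay far above the rest of that group. Slc25a37, mitoferrin 1, which brings iron into mitochondria, fell by 0.45 ± 0.12 (adjusted p = 0.00422). Mean levels of Slc25a37 in WT mice (± SD, n = 4, or 3 in low-fat fed) were 61.1 ± 8.10 CPM in low-fat fed, 39.1 ± 11.8 CPM in low-fat fasted, 59.6 ± 8.83 CPM in high-fat fed and 47.0 ± 7.94 CPM in high-fat fasted mice. In MCAD-KO mice (n = 4, or 3 in high-fat fasted) Slc25a37 averaged 60.5 ± 13.6 CPM in low-fat fed, 43.1 ± 18.6 CPM in low-fat fasted, 59.4 ± 8.18 CPM in high-fat fed and 48.5 ± 1.23 CPM in high-fat fasted mice. The sum of the 3 erythroid markers, all detected, was 425 to 967 CPM in fed and 354 to 843 CPM in fasted mice, and their part in the iron carrier levels was not tested. Mitoferrin 2 (Slc25a28, 0.14 ± 0.16) and Slc25a40, a relative of Slc25a39 (-0.26 ± 0.31), had adjusted p of 0.621 and 0.666.

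Of the 5 genes without an assigned substrate 2 rose. Slc25a47 (ENSMUSG00000048856, chr12:108836046-108856815, plus strand) had the largest rise of the 38 genes. WT low-fat mice had 254, 221 and 286 CPM fed and 1457, 983, 579 and 782 CPM fasted, and MCAD-KO low-fat mice 185, 195, 266 and 254 CPM fed and 1374, 744, 801 and 1319.6 CPM fasted. High-fat mice had 309, 191, 426 and 346 CPM in WT fed, 371, 283, 729 and 660.5 CPM in WT fasted, 298, 293, 416 and 136 CPM in MCAD-KO fed and 275, 719.8 and 447 CPM in MCAD-KO fasted mice. On the low-fat diet every fasted mouse was above every fed mouse, and on the high-fat diet the ranges overlapped. Slc25a47 rose by 1.39 ± 0.19 on the log2 scale (2.63-fold, 95% interval of the log2 value 0.99 to 1.79, adjusted p = 9.89e-06). Slc25a46, an outer membrane protein tied to mitochondrial shape, rose by 0.32 ± 0.09 (adjusted p = 0.0133). Mean levels of Slc25a46 in WT mice (± SD, n = 4, or 3 in low-fat fed) were 63.2 ± 20.7 CPM in low-fat fed, 88.5 ± 9.05 CPM in low-fat fasted, 67.9 ± 13.3 CPM in high-fat fed and 70.4 ± 5.59 CPM in high-fat fasted mice. In MCAD-KO mice (n = 4, or 3 in high-fat fasted) Slc25a46 averaged 63.0 ± 10.4 CPM in low-fat fed, 92.2 ± 21.7 CPM in low-fat fasted, 69.6 ± 4.47 CPM in high-fat fed and 79.7 ± 3.32 CPM in high-fat fasted mice. Slc25a45 (-0.34 ± 0.13, adjusted p = 0.0621), Slc25a48 (-0.15 ± 0.14) and Slc25a53 (0.15 ± 0.31) did not pass. Slc25a10, Slc25a23, Slc25a33, Slc25a35, Slc25a37, Slc25a46 and Ucp2 overlap genes on the other strand, and so do Slc25a11, Slc25a12, Slc25a16, Slc25a21, Slc25a25, Slc25a26, Slc25a36 and Slc25a53. The union mode of counting leaves out a read that falls on more than 1 gene, and the strand setting is not given in the sources used here, so without strand the reads of the shared stretches would be missing from these values. Slc25a37 (over 4540 bases), Slc25a3, Slc25a14, Slc25a16, Slc25a39, Slc25a47 and Slc25a51 also overlap a gene on their own strand. Reads of those stretches would be missing whatever the strand setting.

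The summed level of the family was higher in fasted than in fed mice on the low-fat diet. The 38 genes summed to 2673 to 2863 CPM in the 7 low-fat fed mice and to 3447 to 5184 CPM in the 8 low-fat fasted mice, with no overlap. Without Slc25a47 and Slc25a22 the sums were 2360.2 to 2481 CPM and 2654 to 3218 CPM, again with no overlap. These ranges hold for TMM-scaled CPM, and ranges without TMM scaling were not compared. On the high-fat diet the 38 genes summed to 2739 to 3217 CPM fed and 2831 to 3753 CPM fasted, which overlapped. The share of Slc25a47 in the sum went from a median of 8.97% in low-fat fed to 20.9% in low-fat fasted mice.

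Within single conditions, fasting called 8 of the 38 genes in WT low-fat mice (5 higher and 3 lower, with 5.87% of all genes called, 2.84% higher and 3.03% lower) and 11 in MCAD-KO low-fat mice (8 higher and 3 lower, with 10.9% of all genes called, 5.73% higher and 5.17% lower). On the high-fat diet edgeR called 1 carrier in WT mice (Slc25a44, -0.98 ± 0.19, adjusted p = 0.0106, with 0.358% of all genes called). In MCAD-KO mice edgeR called 0 carriers (0.415% of all genes), DESeq2 1 (143 of all genes) and limma voom 0 (56 of all genes). There 7 carriers had an unadjusted p below 0.05 by edgeR, as did 958 of all 13960 genes. In TMM-scaled CPM the ranges of fed and fasted mice did not overlap in 5 genes on the low-fat diet, Slc25a10, Slc25a13, Slc25a39 and Slc25a47 upwards and Slc25a17 downwards (4.96% of all genes). On the high-fat diet they did not overlap in 2, Slc25a13 upwards and Slc25a44 downwards (0.58% of all genes). Over all 30 mice the ranges of fed and fasted mice overlapped in every carrier, while 0.236% of all genes showed no overlap. Without replicate 1 of the MCAD-KO low-fat fasted mice 13 genes were called in MCAD-KO low-fat mice, but Slc25a39, Slc25a46 and Slc25a10 were then no longer called. Without replicate 3 or replicate 4 of that group, the mice with the highest adrenal cortex sums, 10 and 8 carriers were called, and without its replicate 2 there were 7.

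The fasting effect was compared between diets by the interaction of feeding state and diet, averaged over genotypes. Of the 38 genes, 2 were called (1.81% of all genes), Slc25a51 and Slc25a17. An unadjusted p below 0.05 was found in 12 of the 38 and in 1689 of all 13960 genes. DESeq2 called 4 carriers (423 of all genes) and limma voom 3 (290 of all genes). For Slc25a51 the fasting effect was 1.05 on the low-fat and -0.17 on the high-fat diet (log2), a difference of -1.22 ± 0.27 (95% interval -1.77 to -0.67, adjusted p = 0.0124). High-fat levels of Slc25a51 were 183, 180.3, 146 and 113 CPM in WT fed, 111, 106, 129.9 and 139 CPM in WT fasted, 130.2, 145, 129 and 126 CPM in MCAD-KO fed and 141, 153 and 111 CPM in MCAD-KO fasted mice, with fed and fasted mice overlapping. For Slc25a17 the fasting effect was -0.95 on the low-fat and -0.19 on the high-fat diet, a difference of 0.76 ± 0.21 (adjusted p = 0.0398). The Slc25a17 call was lost when any 1 of 15 mice was left out (adjusted p up to 0.143). The Slc25a51 call was kept whichever mouse was left out, and missed the threshold without the 4 mice whose libraries held pancreas or muscle RNA (-1.29, adjusted p = 0.0533).

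**Figure D3:**
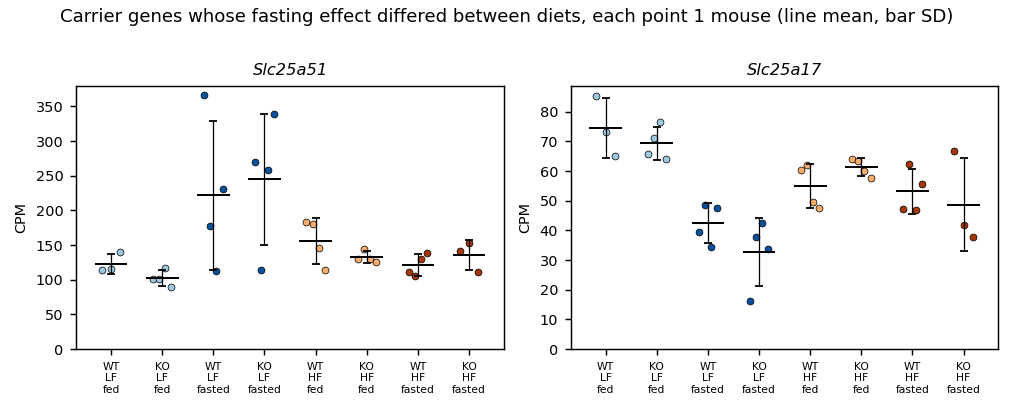
CPM of Slc25a51 and Slc25a17 in each of 30 mice by group; each point is 1 mouse, the line is the mean and the bar 1 SD. Slc25a51 was high in several low-fat fasted mice (113 to 366 CPM in WT), whereas Slc25a17 was low in all 8 of them.

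Over the 15 genes called for fasting, 14 had a smaller fasting effect on the high-fat diet, the exception being Slc25a44. The median size of the log2 fold change in these 15 was 0.711 on the low-fat and 0.361 on the high-fat diet. Among all 2190 genes called for fasting the medians were 0.816 and 0.380, and 89% of them had a smaller effect on the high-fat diet.

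**Figure D4:**
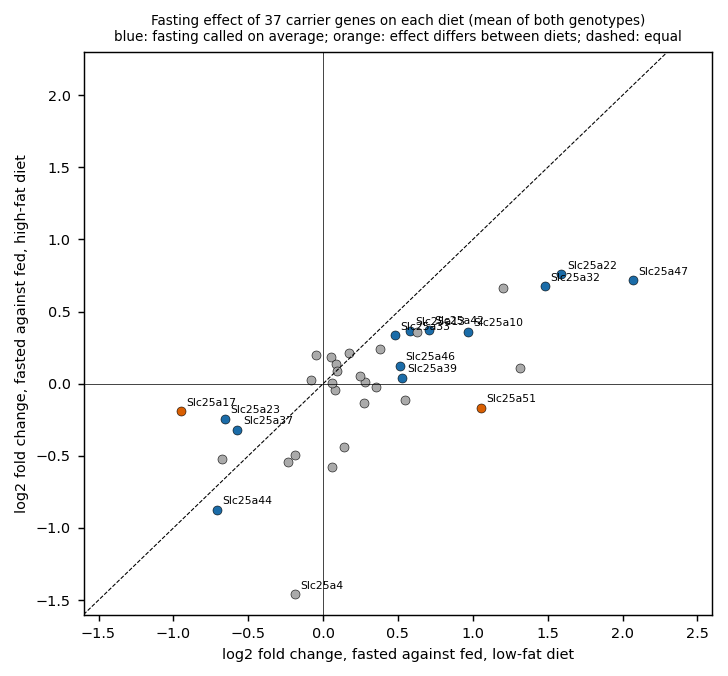
Fasting effect on the low-fat diet (x axis) against the high-fat diet (y axis), log2 fold change, for 37 genes (Slc25a35 left out for its low counts); blue points were called for fasting on average, orange points also differed between diets, grey points were not called, and the dashed line marks equal effects. All coloured points but Slc25a44 lie nearer to 0 on the high-fat than on the low-fat diet.

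Diet itself, averaged over genotype and feeding state, called 1 of 38 genes, against 2.72% of all genes tested. Ucp2 (ENSMUSG00000033685, chr7:100493337-100502020, plus strand), the uncoupling protein of macrophages and many other cells, was at 8.22, 8.74 and 7.46 CPM in WT low-fat fed, 13.9, 6.65, 13.4 and 9.15 CPM in WT high-fat fed, 7.89, 7.21, 4.26 and 4.05 CPM in WT low-fat fasted and 11.5, 12.8, 7.01 and 12.2 CPM in WT high-fat fasted mice. MCAD-KO mice had 6.39, 6.65, 2.42 and 4.95 CPM, 11.2, 9.93, 8.41 and 9.96 CPM, 11.4, 11.6, 4.66 and 4.26 CPM and 4.53, 13.2 and 15.6 CPM in the same order. Ucp2 rose by 0.68 ± 0.19 on the log2 scale with the high-fat diet (adjusted p = 0.0465), and the diets overlapped in both feeding states. The Ucp2 call was lost when any 1 of 20 mice was left out. It was also lost in 11 of 17 other settings (adjusted p up to 0.737). The 7 liver macrophage markers, all detected, summed to 217 to 554 CPM in low-fat and 253 to 685 CPM in high-fat mice, and the Ucp2 value with that sum as a term was 0.69 (adjusted p = 0.0417). In fasted MCAD-KO mice Slc25a39 was called lower on the high-fat diet (-0.70 ± 0.19, adjusted p = 0.0435, 1.28% of all genes), a call that was lost when any 1 of 16 mice was left out (adjusted p up to 0.246, without MCAD-KO low-fat fasted replicate 1).

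The diet comparisons within WT fed, WT fasted and MCAD-KO fed mice called 0 carriers by edgeR (0.0645%, 0.845% and 0.00716% of all genes called). In the same order, 3, 7 and 3 carriers had an unadjusted p below 0.05. So did 722, 1588 and 1008 of all 13960 genes. DESeq2 called 1 carrier in WT fasted mice and 0 in the other conditions, and limma voom 0 in each. Between diets the fed mice did not overlap in Slc25a13, higher on the high-fat diet, and in Slc25a17, lower (0.33% of all genes), and the fasted mice overlapped in every carrier (1.02% of all genes did not).

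Genotype called none of the 38 genes on average (edgeR, 1 with an unadjusted p below 0.05, DESeq2 0 and limma voom 0), while 0.00716% of all genes, that is 1 gene, Acadm, was called. The 4 genotype comparisons within conditions called 0 carriers by edgeR, DESeq2 and limma voom, with 0.00716% of all genes called in each by edgeR and 0 to 3 carriers at an unadjusted p below 0.05. The interactions of genotype with fasting and with diet called 0 carriers by the same tools and 0% of all genes by edgeR. Each had 1 carrier at an unadjusted p below 0.05 by edgeR, beside 673 and 511 of all 13960 genes. For genotype itself, 457 of all genes had such a p on average, and 337 to 797 within conditions. Differences between MCAD-KO and WT mice were not detectable for the 38 genes at 3 or 4 mice per group. Without Slc25a35 the fitted average log2 differences (MCAD-KO minus WT) ran from -0.47 in Slc25a27 to 0.40 in Slc25a32, which had the 95% interval 0.01 to 0.80 and the 1 unadjusted p below 0.05, which did not pass after adjustment. For Slc25a47 the 95% interval was -0.46 to 0.33 and for Slc25a13 -0.19 to 0.11.

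Slc25a4, the ADP/ATP carrier of heart and skeletal muscle, stood apart in 3 mice. It was 227 CPM in MCAD-KO high-fat fed replicate 1, 118 CPM in WT high-fat fed replicate 4 and 44.2 CPM in WT high-fat fasted replicate 4, against 8.82 to 30.6 CPM in the other 27. The 5 skeletal muscle markers, all detected, summed to 1067, 553 and 233 CPM in those 3 mice, and to at most 23.6 CPM in the others. All 3 were on the high-fat diet and 2 of them were fed. The fasting effect of Slc25a4 was -0.82 ± 0.41 (adjusted p = 0.208), and the part of muscle RNA in it was not tested.

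**Figure D5:**
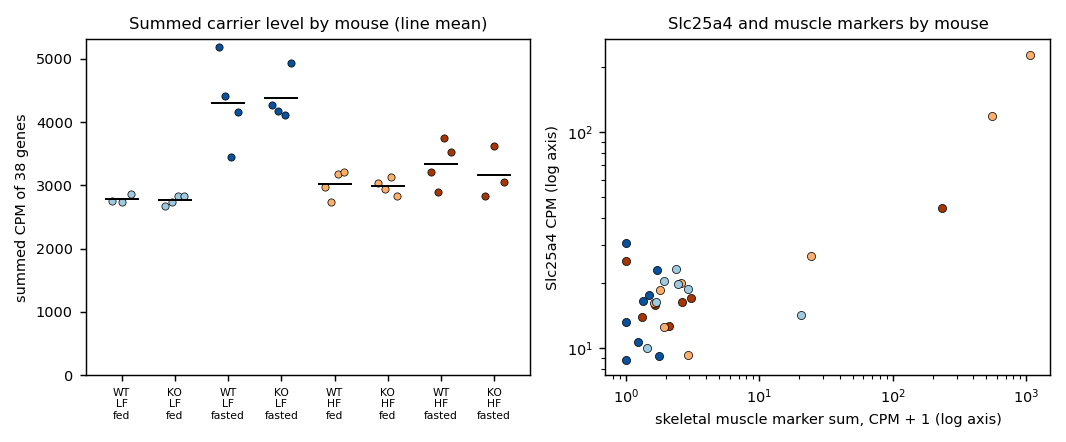
Left, summed CPM of the 38 carrier genes in each mouse by group (line, mean), with the low-fat fasted mice at 3447 to 5184 CPM and the low-fat fed mice at 2673 to 2863 CPM. Right, Slc25a4 CPM against the summed CPM of 5 skeletal muscle markers plus 1 for each mouse, both on log axes, where 3 mice with a high muscle sum are the highest for Slc25a4.

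Other genes of the mitochondrial transport system and reference genes are given beside these values. Their lists were chosen with earlier results of these data known, so the counts are a description and not a test. Of all genes tested, 7.99% rose and 7.7% fell with fasting. Of 16 tested inner membrane transport genes outside the members, among them Slc25a1, Slc25a15 and Slc25a20, 4 rose and 3 fell with fasting. The carnitine-acylcarnitine carrier Slc25a20, which brings fatty acids in for oxidation, rose by 1.15 ± 0.08 on the log2 scale (adjusted p = 4.19e-14), and the citrate carrier Slc25a1, which feeds lipid synthesis, fell by 0.60 ± 0.09 (adjusted p = 7.36e-07). Of 15 genes of the carrier import machinery and porins 4 rose (Tomm70a, Tomm20, Timm10 and Vdac2) and 0 fell. The 4 enzymes of the malate-aspartate shuttle, in which citrin takes part, had log2 fold changes of -0.13 to 0.36 with adjusted p of 0.327 or more. Of 13 reference genes of fasting, 9 rose, among them Cpt1a, which commits fatty acids to mitochondrial oxidation (1.39 ± 0.12, adjusted p = 1.07e-11), and all 11 reference genes of feeding fell.

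For 29 of the 38 genes a RefSeq promoter of build GRCm38.p6 was at hand, and the 250 bases before the start site were searched on both strands for 8 motifs. The E-box CACGTG was found in 4 of the 29 (13.8%, against 6.05% of all 27025 promoters), the nuclear receptor hexamer AGGTCA in 4 (13.8%, against 13.8% of all) and TGACG, the core of the cAMP response element, in 9 (31%, against 17.9% of all). The full cAMP response element TGACGTCA, which contains that core, was in 1 (1.62% of all), the NRF1 motif in 1 (3.86% of all), and the FOXO motif GTAAACA (3.09% of all), the ERR motif TCAAGGTCA (0.366% of all) and the DR1 repeat of the hexamer (0.037% of all), the last pair of which contain AGGTCA, in 0. Of the 15 genes called for fasting, 9 had a promoter in the table (7 that rose and 2 that fell), and 4 of these held a match. They are shown because their mRNA rose with fasting and the window holds a motif, each 5′ to 3′ with the matched letters in capitals, on either strand. A match is a description of the letters, not of a bound factor. The gene spans given in the text are from the GENCODE annotation, whereas the promoters were set by the RefSeq start, and the windows of Slc25a47, Slc25a39 and Slc25a11 lie wholly inside the GENCODE span of the gene.
Slc25a47 (chr12:108850879-108851128, plus strand): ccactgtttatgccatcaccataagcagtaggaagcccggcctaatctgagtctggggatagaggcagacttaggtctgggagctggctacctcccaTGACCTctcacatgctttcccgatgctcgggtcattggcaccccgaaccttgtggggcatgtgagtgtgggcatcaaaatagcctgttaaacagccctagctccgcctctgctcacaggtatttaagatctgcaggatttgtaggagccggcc
Slc25a39 (chr11:102407518-102407767, minus strand): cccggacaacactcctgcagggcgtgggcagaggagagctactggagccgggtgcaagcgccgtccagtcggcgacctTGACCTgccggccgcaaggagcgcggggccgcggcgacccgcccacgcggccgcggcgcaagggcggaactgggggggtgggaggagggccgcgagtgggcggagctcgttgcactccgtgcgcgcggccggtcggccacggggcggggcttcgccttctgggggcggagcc
Slc25a13 (chr6:6217174-6217423, minus strand): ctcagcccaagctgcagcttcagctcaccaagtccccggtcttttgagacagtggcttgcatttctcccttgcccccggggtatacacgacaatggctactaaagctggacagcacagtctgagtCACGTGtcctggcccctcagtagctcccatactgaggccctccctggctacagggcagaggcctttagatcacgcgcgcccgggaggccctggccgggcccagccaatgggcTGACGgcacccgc
Slc25a33 (chr4:149774268-149774517, minus strand): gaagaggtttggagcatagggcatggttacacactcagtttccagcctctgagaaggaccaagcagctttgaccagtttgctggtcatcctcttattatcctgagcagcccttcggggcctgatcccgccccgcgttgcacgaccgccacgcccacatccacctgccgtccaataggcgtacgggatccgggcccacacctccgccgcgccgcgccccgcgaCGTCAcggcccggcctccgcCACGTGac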

How the data were processed

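RNA was extracted with Trizol from crushed freeze-clamped liver, and 3′ libraries were prepared with the Lexogen QuantSeq kit. Per the labels and the study's methods, the authors aligned single reads to GRCm38 with HISAT 0.1.5 and SAMtools 1.2, and deposited unnormalized counts of reads per gene from HTSeq-count 0.6.1p1. Only read ends near the poly(A) tail are counted, so isoforms with other ends may be missed. IDs without a symbol held 0.125% of the counts.

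From these counts, genes with at least 1 CPM in 4 or more of 30 libraries were kept, scaled by TMM and fitted with the edgeR 4.0.16 quasi-likelihood test (R 4.3.3, 8 group means), with Benjamini-Hochberg adjustment over all 13960 genes and a threshold of 0.05. Errors after ± are standard errors for log2 fold changes. DESeq2 1.42.0 and limma 3.58.1 were alternatives. The procedure was tested on simulated data. No mice of a group shared counts within sampling noise (chi-square per gene at least 4.17 over 42 pairs). The carriers, companion lists and markers were chosen with earlier results of these data known. Of the carriers tested, 1 that was not called is not reported here by name, nor is 1 reference gene. The carriers called for fasting, diet, genotype or an interaction are given by group.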

Additional observations from a re-analysis of the deposited data

Results flagged for a closer look

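In 4 of 96 groups of 4 mice, over 16 named carriers, 1 mouse stood apart from the other 3 by Dixon's criterion, which chance gives in about 1 of 20 groups. Slc25a32 was 11.1 CPM in MCAD-KO high-fat fed replicate 2, against 5.14 to 6.01 CPM in the rest of the group. Slc25a42 was 65.5 CPM in the same mouse, against 90.9 to 93.1 CPM. Slc25a35 was 0.258 CPM in MCAD-KO low-fat fasted replicate 2 and 0.253 CPM in WT low-fat fasted replicate 4, each from 1 read, with 0 in the other mice.

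The fasting effect differed between diets by the interaction test for Slc25a51 (-1.22, log2, high-fat minus low-fat) and Slc25a17 (0.76).

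The library labelled MCAD-KO high-fat fasted replicate 4, which was not used, had several carriers above all 30 mice. Slc25a4, the ADP/ATP carrier of heart and muscle, was at 7726 CPM, Slc25a34 at 113 CPM and Slc25a36 at 78.5 CPM.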

How the results depend on the processing

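All 15 carriers called for fasting kept their direction in every alternative in which they were tested (filterByExpr left Slc25a35 untested), and no value reversed. The count called for fasting was 12 with all 32 mice, 11 with MCAD-KO high-fat fasted replicate 4 put back and 14 with WT low-fat fed replicate 2 put back. It was 16 by DESeq2, 18 by limma voom, 1 in lane 7 alone and 13 to 17 when 1 mouse was left out. Over all genes, 1542 of 14215 were called with all 32 mice. With the 2 left-out libraries put back singly, in the order above, 1529 of 14119 and 2142 of 14070 were called. DESeq2 called 2362 and limma voom 2277 of 13960, and lane 7 alone 336 of 13155. With 1 mouse left out 1953 to 2462 were called. The count for diet was 0 with all 32 mice, with either left-out library put back, with lane, the acinar or the muscle sum as a term, with the replicate block, in lane 7 or lane 8 alone and without the mice with pancreas or muscle RNA, 2 with the macrophage sum, and 0 to 1 when 1 mouse was left out. For fasting by diet it was 0 with all 32 mice, with MCAD-KO high-fat fasted replicate 4 put back and without the pancreas or muscle mice, 1 with WT low-fat fed replicate 2 put back, the acinar or macrophage sum or the replicate block, 4 by DESeq2, and 1 to 3 when 1 mouse was left out.

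Within conditions, with all 32 mice and with the heart library put back, fasting called 1 and 2 in WT low-fat, 3 and 3 in MCAD-KO low-fat and 0 and 0 in WT high-fat mice. MCAD-KO low-fat also gave 4 with 2 groups alone and 7 with the macrophage sum, WT high-fat 0 without the pancreas or muscle mice, and MCAD-KO high-fat 1 by DESeq2 and 2 with 2 groups alone. Leaving out 1 mouse gave 5 to 9 in WT low-fat (5 without fed replicate 3 or 4), 7 to 13 in MCAD-KO low-fat (7 without fed or fasted replicate 2) and 0 to 1 in WT high-fat mice (0 without fed replicate 3, fasted replicate 3 or 4). Diet called 1 in WT fed with 2 groups alone, 1 in WT fasted by DESeq2 (0 to 1 with 1 mouse left out), and in MCAD-KO fasted 3 by DESeq2 and 0 with WT low-fat fed replicate 2 put back, age as a term, the replicate block, 2 groups alone or the pancreas and muscle mice out (0 to 2 with 1 mouse left out). Over all genes DESeq2 called 143 for fasting in MCAD-KO high-fat mice. For diet it called 251 in WT fasted and 372 in MCAD-KO fasted mice. Calls over all genes in the other settings are not given for diet, the interaction or single conditions. There a change in the number of carriers called cannot be told apart from a change over all genes. The causes were not tested.

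Mice with the same replicate number did not vary together (median correlation 0.0172, lowest -0.295, 98 pairs), so the numbers do not pair mice, and the replicate block gave 15 calls for fasting. The terms for macrophage and muscle sums and the removal of pancreas or muscle mice were chosen after seeing the data. Genes under about 10 CPM rest on few reads per mouse.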
